A study of Aspergillus niger with 6 samples.

Results

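In mycelium of Aspergillus niger grown on milled willow, 179 genes of moderate level formed a set that was many times lower in both glucose-fed conditions. They were chosen by level: a mean of 20 to 200 CPM on willow (read counts brought to a common library size with TMM scaling), with the lower of the 2 willow libraries at least 4 times the highest of the other 4 libraries. The 179 members come from 14114 genes with an identifier beginning with An and make up 4.65% of the 3851 such genes in that window of willow level. Because willow against both other groups chose the members, those differences are given as a description, with no test. Only 4 members have a gene symbol, namely pgaE, pgaI, dhbD and leu2B, and 6 stand on a list of genes of pectin breakdown.

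All cultures were of strain N402, started from spores in liquid medium at 28 °C. In the glucose 48 h group, RNA came from mycelium after 48 h in medium with 1% glucose. In the willow 24 h group, mycelium that had also been grown for 48 h on glucose was washed, and 1.5 g of it was moved for 24 h to medium whose carbon source was 1% willow, ground in a ball mill. Cultures of the willow 24 h + glucose 5 h group were treated like the willow group and then received glucose for 5 h before harvest. Each group had 2 libraries, lettered A and B, from duplicate cultures. Carbon source, washing, transfer and culture age thus differ together between the glucose 48 h group and the other groups, and their parts cannot be told apart.

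Willow wood consists mainly of cellulose, hemicelluloses such as xylan, lignin and a smaller amount of pectin, a family of polymers rich in galacturonic acid. A. niger, a saprotrophic mould, secretes mixtures of hydrolases, lyases and esterases that take these polymers apart, and takes up the sugars that are set free. Genes for such enzymes are known to be switched on by small sugars released from the wall and held down in the presence of glucose, which is called carbon catabolite repression.

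Between 434508 and 775667 reads per library were counted to genes, 1.46% to 3.15% of the reads recorded in the files, so 1 count was worth 1.22 to 2.61 CPM. Replicates differed beyond sampling noise in every group (chi-square per degree of freedom 6.81 to 11.5), and the common biological coefficient of variation was 25.8%. The label mycelium was checked with 6 genes listed, by identifier, as markers of spore formation: their summed level was 101 to 119 CPM on glucose, 224 to 227 CPM on willow and 148 to 232 CPM after glucose addition, and none was without counts in all libraries. An09g05730 alone gave 166 and 154 CPM of the willow sums, against 64.3 and 75.7 CPM on glucose. The markers did not all move together. An01g10540 was also higher on willow, at 22.03 and 10.5 CPM against 1.40 and 3.66 CPM on glucose. So was An14g05370, at 4.01 and 13.1 CPM against 1.40 and 1.22 CPM. An14g05350 overlapped, at 40.5 and 6.11 CPM on glucose and 28.04 and 49.7 CPM on willow. By contrast, An01g04830 went from 6.99 and 4.89 CPM on glucose to 2.0 and 0 CPM on willow. An01g08900 went from 4.19 and 9.77 CPM to 2.0 and 0 CPM. Of 2 genes listed as markers of starvation, An02g07020 stood at 37.7 and 44.0 CPM on glucose, 2217 and 2681 CPM on willow and 67.3 and 148 CPM after glucose addition, and An09g06400 had no count in any library. The part of either marker list in the members' levels was not tested. In bulk RNA, fewer cells of a kind and less RNA per cell cannot be told apart.

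The members together took up a small share of the gene reads on willow and a far smaller one elsewhere. Their share of the gene reads was 1.43% and 1.31% in willow A and B, 0.0924% and 0.102% on glucose, and 0.107% in both libraries after glucose addition. The median member stood at 80.1 and 75.8 CPM in the willow libraries. The corresponding medians were 2.79 and 2.44 CPM on glucose and 2.49 and 2.27 CPM after glucose addition. No member exceeded 44.0 CPM on glucose or 42.4 CPM after the addition, and none was below 12 CPM in a willow library. In counts, the median member had 40 and 29 reads on willow and 1 or 2 in each other library, so that single low values carry a wide counting error.

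**Figure D1:**
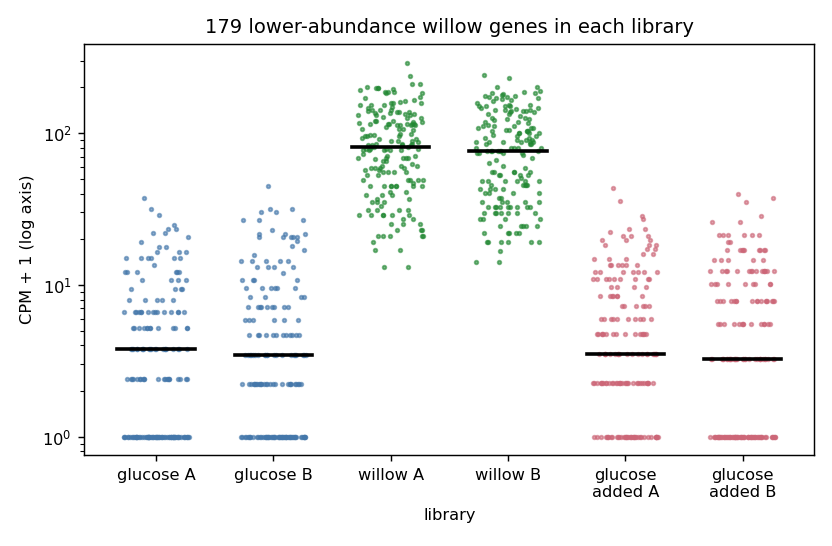
Each point is 1 of the 179 members in 1 library, with CPM plus 1 on a log axis and the library's median as a bar. The willow medians of 80.1 and 75.8 CPM lie far above the medians of 2.27 to 2.79 CPM in the other 4 libraries, and many members sit at a count of 0 outside willow.

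Outside willow the members fell into several patterns of residual level. Reads in both other groups were found for 123 members, in most cases few. Another 27 had no count on glucose only, 13 had none after glucose addition only, and 16 had no count in any of the 4 libraries. Of all 14114 An genes, at any willow level, 4238 had no count on glucose and 4518 had none after the addition. Both groups lacked counts for 3534 of them. Over those 4 libraries together, 58 members had at most 3 counts, and only 32 members had more than 10 counts in each of both groups. The median member's level was 3.39% of its willow level on glucose and 5.24% after the addition. Among the 148 genes that met the same ratio with a willow mean above 200 CPM, called the abundant willow genes here, these medians were 1.04% and 2.81%. The rule used these values in both classes. A single read is also a larger part of a member's willow level than of an abundant gene's. The part of this in the contrast was not tested. For members with at most 3 counts, the size of the difference from willow is only loosely limited by the reads.

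Of the lists used here, that of pectin breakdown was the longest and held the most members. The short sugar transport list held 1 member among 4 genes. The lists were chosen with earlier results of these data known, so this rank describes the lists and was not tested. The list of 24 pectin genes, by identifier, held 6 members and 7 abundant willow genes, and 10 of its other genes did not meet the ratio. An18g04810 stood at 192 and 157 CPM on willow. It had no read in glucose A or in the A library after glucose addition, and 1 read in each B library, which is 1.22 and 2.27 CPM. With the reads of both libraries of a group pooled, its willow level was 271 times the glucose level, with an exact 95% counting interval of 48.0 to 10789.9. Ratios with a counting interval, and ratios given as at least a value, are of such pooled reads, and all other ratios of groups are of mean CPM. This interval and the others given here cover counting error only. An12g07500 stood at 134 and 172 CPM on willow, at 5.59 and 6.11 CPM on glucose and at 6.23 and 15.9 CPM after the addition. Both willow libraries were far above all others, and both libraries after the addition were above the glucose libraries, the A library only just. These levels rest on 5 and 7 reads after the addition and 4 and 5 on glucose. The difference did not pass the test described below (log2 fold change 0.78, edgeR adjusted p = 0.499).

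The other members of the pectin list were also well separated from both other groups. An08g01710 stood at 106 and 149 CPM on willow against 11.2 and 4.89 CPM on glucose and 9.97 and 13.6 CPM after glucose addition. The last 2 groups overlapped. An10g00290 stood at 44.1 and 54.9 CPM on willow and had 1 read in each of the other 4 libraries, giving 1.22 to 2.27 CPM. The pooled reads gave a ratio of willow to glucose of 37.4, with a counting interval of 9.75 to 319. An03g06740 was nearly equal in both willow libraries, at 84.1 and 83.6 CPM, had no read on glucose and stood at 1.25 and 15.9 CPM after the addition. The willow level was at least 42.9-fold higher than glucose in pooled reads, taking 3 counts over both libraries as the limit that a count of 0 allows. The willow mean was 9.79 times the mean after the addition.

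The polygalacturonases pgaE and pgaI, which cut the galacturonic acid backbone of pectin, were both members. The gene pgaE (An01g14670), which was not on the pectin list, stood at 160.2 and 94.1 CPM on willow. It stood at 2.79 and 3.66 CPM on glucose and 3.74 and 6.81 CPM after glucose addition. Its willow mean of 127 ± 46.8 CPM (SD, n = 2) was 39.4 times the glucose mean and 24.1 times the mean after the addition. The gene pgaI (An01g11520) stood at 54.1 and 47.0 CPM on willow, with no read on glucose and 1 read, 1.25 CPM, in the A library after the addition. In pooled reads, that put willow at least 26.1-fold higher than glucose and at 63.4 times the group with added glucose, with a counting interval of 10.8 to 2560 for the second ratio. Whether these 2 genes differed between glucose and added glucose cannot be decided from so few reads. Over both libraries of a group, pgaE had 5 reads on glucose and 6 after the addition, and pgaI 0 and 1. Neither passed the test described below (edgeR quasi-likelihood, adjusted p = 0.726 for pgaE and 0.466 for pgaI). The fit on the compared groups alone tested neither.

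The other members with a symbol belong to metabolism. The gene dhbD (An07g02050), whose symbol stands for a decarboxylase of dihydroxybenzoate, an aromatic acid, stood at 134 and 183 CPM on willow, 5.59 and 6.11 CPM on glucose and 7.48 and 11.4 CPM after glucose addition. Its willow mean was 27.1 times the glucose mean and 16.8 times the mean after the addition. The gene leu2B (An04g10130), named for a step of leucine synthesis, stood at 19.6 and 20.8 CPM on glucose and 11.2 and 11.4 CPM after the addition, against 118 and 188 CPM on willow. Its libraries after the addition were both below its glucose libraries, yet this difference did not pass the test (log2 fold change -0.81, edgeR adjusted p = 0.348).

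**Figure D2:**
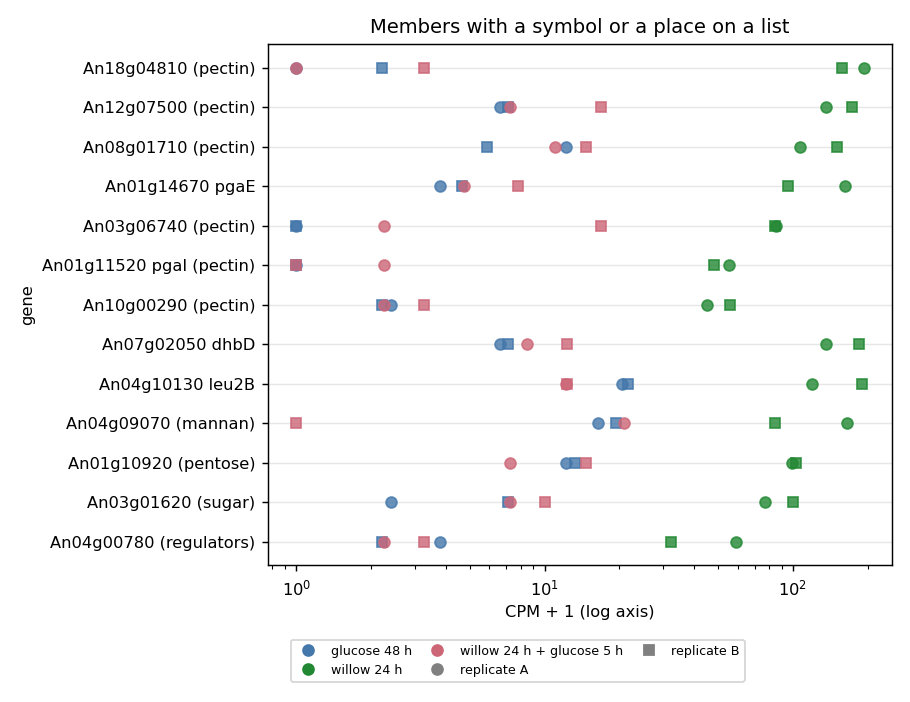
Members with a symbol or a place on a list, with CPM plus 1 on a log axis, colour for the group and shape for replicate A or B. In every gene both willow libraries lie to the right of all others, and the narrowest gap is that of An04g09070, with 83.6 CPM in willow B against 19.9 CPM in the A library after glucose addition.

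Single members came from the lists of sugar use, transport and regulation. An01g10920, from the list of pentose and galacturonate use, stood at 98.1 and 102 CPM on willow, 11.2 and 12.2 CPM on glucose and 6.23 and 13.6 CPM after glucose addition. An03g01620, from the sugar transport list, stood at 76.1 and 99.3 CPM on willow, 1.40 and 6.11 CPM on glucose and 6.23 and 9.08 CPM after the addition. An04g00780, from the list of regulators, stood at 58.1 and 31.4 CPM on willow and 1.22 to 2.79 CPM elsewhere. Its neighbour An04g00790, on the same list, lay just outside the rule with a ratio of 3.95. An04g09070, from the list of mannan, xyloglucan and galactose genes, stood at 164 and 83.6 CPM on willow, 15.4 and 18.3 CPM on glucose, 19.9 CPM in the A library after the addition and no count in the B library. The libraries after the addition thus lay on either side of the glucose libraries.

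The lists of cellulose and xylan genes, by contrast, held no member. Of their 15 and 16 genes, 8 and 11 were abundant willow genes. Over all 93 listed genes, 10 were members, 37 were abundant willow genes, 2 met the ratio below 20 CPM and 44 did not meet it. Of the 8 regulators on the list 1 was a member and 1 an abundant willow gene, and neither list of markers held a member. The lists were drawn up from knowledge of this fungus and match by identifier alone, so these counts describe the lists and not every gene of a pathway.

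Most members had no symbol and no place on a list, among them those with the highest CPM on willow, a scale not corrected for length. An07g01430 had the highest mean CPM, 193 ± 52.1 CPM (SD, n = 2), with 156 and 230.0 CPM in A and B. It stood at 6.99 and 6.11 CPM on glucose and 1.25 and 4.54 CPM after glucose addition. An09g03730 stood at 208 and 169.9 CPM on willow, 15.4 and 25.6 CPM on glucose and 16.2 and 6.81 CPM after the addition, with the latter 2 groups overlapping. An01g00210 had 172 and 201 CPM on willow, 1.40 and 2.44 CPM on glucose, 2.49 CPM in the A library after the addition and no read in the B library. In pooled reads, willow was 94.5 times glucose, with a counting interval of 31.8 to 463. An01g00510, at 198 and 169.9 CPM on willow, was close to the limit of the rule, with 36.3 and 29.3 CPM on glucose and 42.4 and 18.2 CPM after the addition. Its ratio of 4.01 was the nearest to the limit of 4 from above.

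Of the 16 members with no read outside willow, An11g08850 had the most reads, at 130.2 and 102 CPM. In pooled reads this is at least 60.3-fold higher than glucose and at least 48.9-fold higher than the group with added glucose. Next by CPM was An13g01880, at 76.1 and 123 CPM and at least 49.3-fold above glucose, followed by An02g00060 at 112 and 78.4 CPM. An11g04150, An09g02140 and An03g05950 stood at 94.1 and 47.0, at 68.1 and 70.6 and at 78.1 and 60.1 CPM. Per length the order was another, with 265 CPM per kb for An09g02140 and 103 CPM per kb for An11g08850. A count of 0 at this depth limits the level to 1.95 CPM over both glucose libraries and 2.41 CPM over both libraries after glucose addition. At the other end, the 5 members with the lowest willow CPM were An03g06710, An01g02240, An16g00420, An15g01950 and An14g05040, with means of 20.2 to 21.8 CPM.

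The limits of the rule passed through a continuous range of values. Nearest inside the ratio of 4, after An01g00510, were An15g03390 and An14g05040, both at 4.02, and nearest outside were An11g03780 at 3.98 and An08g06340 at 3.97. Just under a willow mean of 20 CPM lay An04g10000 at 19.8, An05g02030 at 18.8 and An16g00430 at 18.6 CPM, the last next to the members An16g00410 and An16g00420. Just above 200 CPM lay An09g04910 at 210.0, An15g07070 at 212 and An07g04330 at 215 CPM. Of all members with a finite ratio of the lower willow value to the highest other value, 67 were under 6 and 58 over 10, with a median of 7.34.

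The willow replicates of most members lay close together. The higher of the 2 willow values was 1.35 times the lower at the median, against 1.39 times for genes of the same window that are not members. The rule sets its ratio on the lower willow value and so favours close replicates. This comparison therefore describes the choice and is no result about the members. A was higher in 102 members and B in 77. The gap was over 2-fold in 27 members. It was widest for An07g01420, at 16.0 CPM in A and 102 CPM in B, a 6.36-fold gap, followed by An01g10640 at 290.4 and 57.5 CPM and An15g04990 at 126 and 31.4 CPM.

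The rule was also applied to the libraries of a single letter and read in those of the other letter. The members themselves were chosen on all 6 libraries and meet the ratio in either letter by construction. Applied to the A libraries alone, the rule chose 374 genes, of which 220 (58.8%) kept the ratio of 4 in the B libraries, and in 345 (92.2%) willow B was the highest. Of the 3939 genes in the same window of willow A level, 293 (7.44%) kept that ratio and in 1491 (37.9%) willow B was the highest. These window genes include the 374 chosen ones, so their share is not a separate background. Applied to the B libraries, it chose 313 genes, of which 221 (70.6%) kept the ratio in A. Among the 3809 window genes, again with the chosen ones included, 322 (8.45%) kept it. Of the 374 and 313 genes chosen, 169 and 166 were also members. The shares that kept the ratio thus describe the rule and do not test the members. The libraries of a letter shared the same TMM scaling over all 6 libraries.

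Levels of different genes can be compared only per length. The members' median was 61.1 CPM per kb on willow, against 493 CPM per kb for the abundant genes, with the range from 9.35 in An18g05620 (2544 bp) to 592 in An08g01392 (260 bp). In length itself, which the rule did not use, the members had a median of 1341 bp, with quartiles of 1002 and 1618.5 bp. All An genes with a recovered length had 1203 bp (753 to 1749), and the abundant willow genes had 1583 bp.

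Some members were direct neighbours in the genome. The order of genes was taken from the RefSeq table of assembly ASM285v2, which holds all 179 members. Of them, 28 (15.6%) had another member directly beside them, against 349 of all 14058 genes in that order (2.48%). Of the 358 places next to a member, 30 (8.38%) held another member, against 358 of 28078 places beside any gene (1.28%). An abundant willow gene lay directly beside 11 members (6.15%), against 2.03% of all genes. Any gene meeting the ratio, at any willow level, lay beside 43 members (24%), against 6.07% of all genes. This is not particular to the members. The share was 21.6% for the abundant willow genes and 21.3% for the genes meeting the ratio below 20 CPM. An abundant willow gene lay beside 9.46% of the abundant willow genes. No test was made of these shares. Whether reads were counted by strand is not stated, so reads of overlapping neighbours cannot be told apart.

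The longest run joined 4 members to an abundant gene, from An07g01400 to An07g01440. An07g01400 stood at 78.1 and 183 CPM on willow, An07g01410 at 54.1 and 78.4 CPM and An07g01420 at 16.0 and 102 CPM, and none of these 3 exceeded 9.08 CPM elsewhere. Beyond An07g01430, described above, An07g01440 stood at 1168 and 2796 CPM on willow, at 4.19 and 9.77 CPM on glucose and at 102 and 90.8 CPM after glucose addition. In all 5 genes of the run willow B was above willow A. On its far side, An07g01450 had 78.2 and 65.9 CPM on glucose, 2.0 and 0 CPM on willow and 1.25 and 0 CPM after glucose addition, and so was high on glucose 48 h only.

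The second run held An06g02120, An06g02140 and An06g02150 around the abundant gene An06g02130. An06g02120 stood at 124 and 75.8 CPM on willow, with 2.79 CPM in glucose A as its only reads elsewhere, and An06g02140 at 80.1 and 44.4 CPM with no read outside willow. An06g02150 stood at 48.1 and 31.4 CPM on willow and An06g02130 at 240.4 and 327 CPM. All 4 genes were at or near 0 in the other 4 libraries. In another run, An14g01610 at 106 and 31.4 CPM and An14g01620 at 208 and 152 CPM followed the abundant gene An14g01600, at 709 and 517 CPM. In the last of the 4 longest runs, An07g08930, at 20.0 and 26.1 CPM, stood beside An07g08940 at 1532 and 1754 CPM and An07g08950, which the table gives the symbol eglB, at 17480.1 and 14959 CPM. The member had no read outside willow.

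**Figure D3:**
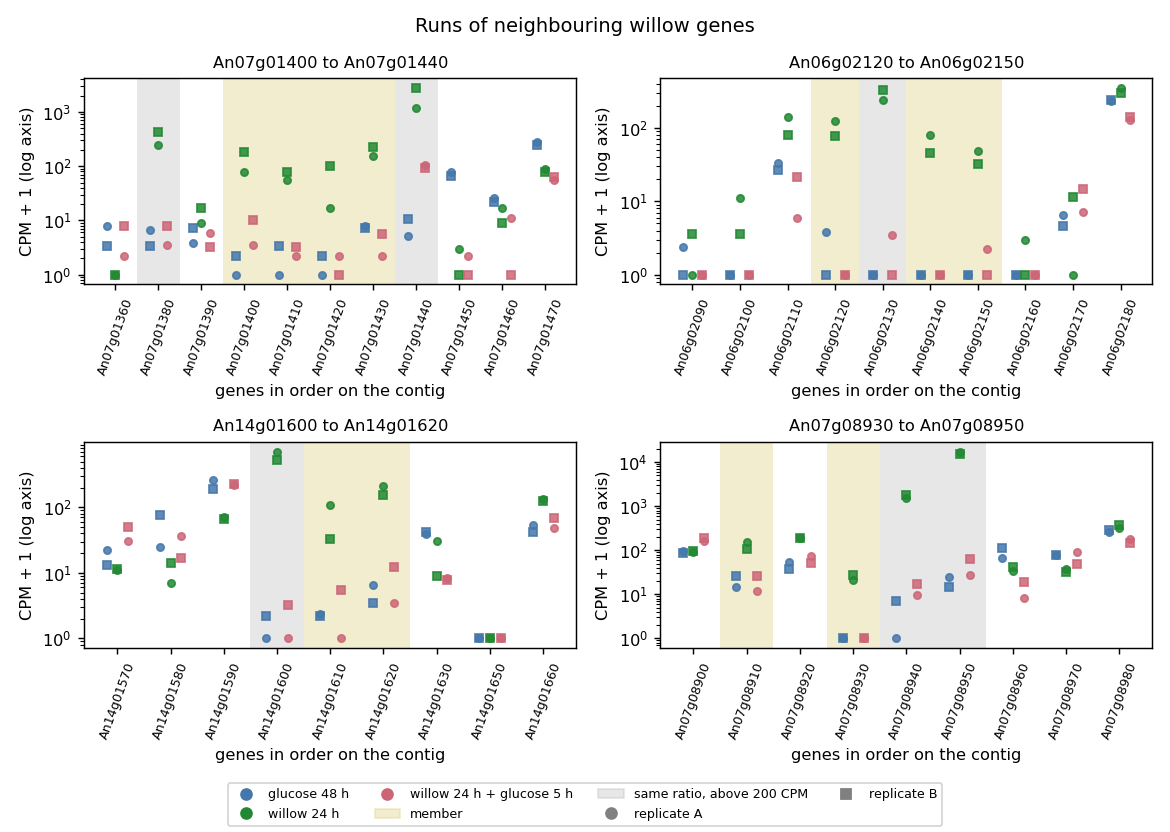
The 4 longest runs of neighbouring willow genes with the genes on either side, as CPM plus 1 on a log axis, genes in order along the contig, colour for the group and shape for replicate A or B. Members are shaded yellow and abundant willow genes grey, with An07g01440 at 1168 and 2796 CPM on willow beside members of 16.0 to 230.0 CPM.

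Of the 20 runs that held a member, 10 consisted of members only, and the runs included several named members. Beside An12g05840, described below, lay An12g05850 at 52.1 and 20.9 CPM on willow. Beside dhbD lay An07g02060 at 56.1 and 34.0 CPM. The pectin list members An08g01710 and An10g00290 lay beside An08g01720, at 44.1 and 39.2 CPM, and An10g00300, at 44.1 and 18.3 CPM. An18g04810 lay beside the abundant gene An18g04800, at 3207 and 2399 CPM.

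The comparison of the glucose 48 h group with the group that received glucose after willow, which the rule did not use, asked whether members differed between the 2 glucose-fed states. For most members the reads do not answer this. The 165 members tested had passed the filter on low counts, many of them only through the willow libraries in which they were chosen to be high, and 15 of the 165 had no count in the 4 libraries compared. Among these 165, 4 were higher and 1 lower after glucose addition, 3.03% in all (edgeR quasi-likelihood test, Benjamini-Hochberg adjusted over all genes, threshold 0.05). Over all 6181 genes tested, 1167 (18.9%) passed, 619 of them (10%) higher and 548 (8.87%) lower. Among genes with a mean under 10 CPM over the 4 libraries compared, a class closer to the members' level and chosen after values were seen, 35 of 354 (9.89%) passed. This class includes many of the members themselves. Its genes also passed a filter that counted the willow libraries, so it is no separate background for the members. With the compared groups filtered and fitted alone, 29 members were tested, of which 2, An01g13480 and An04g00740, passed (6.9%), against 22% of 5885 genes. The members' small share of calls is therefore no result about them. The median log2 fold change was 0.24 over the 165 members, 0 with members lacking counts in a group set to their bound, -0.12 over the 29 members of the fit on the compared groups alone, and 0.00 over all genes. The other 14 members, with 18 to 47 counts on willow, did not pass the filter, which asks for a minimum level in at least 2 libraries. An07g01420, for example, had 8 counts in willow A and 39 in willow B.

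Of the 4 members that rose, An09g02930 had no read on glucose, 7.48 and 20.4 CPM after the addition and 124 and 186 CPM on willow. Its 15 reads after the addition put it at least 6.17-fold higher than glucose in pooled reads (edgeR adjusted p = 0.00216). It passed the test in every count-based alternative that kept all libraries of the compared groups and tested it. The fit on the compared groups alone, filtered without the willow libraries, did not test it. An01g13480 stood at 4.19 and 1.22 CPM on glucose, 27.4 and 15.9 CPM after the addition and 114 and 125 CPM on willow. It rose by 3.03 ± 0.71 on the log2 scale (SE, edgeR adjusted p = 0.00338). The call was lost without glucose B (adjusted p = 0.0575) and without the A library after the addition (0.0782), so single libraries decided it.

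The others that rose were less secure. The pectin list member An03g06740, described above, had 8 reads after the addition, most of them in B, and was at least 3.29-fold higher than glucose (edgeR adjusted p = 0.0331). The fit on the compared groups alone did not test it. Without the B library after the addition, its adjusted p was 0.405, and without glucose A or glucose B it was 0.0598 and 0.0951. An12g05840 stood at 4.19 and 7.33 CPM on glucose, 18.7 and 20.4 CPM after the addition and 200.3 and 175 CPM on willow, and rose by 1.72 ± 0.59 on the log2 scale (SE, edgeR adjusted p = 0.0418). It lost the call without any 1 of the 4 libraries compared, with adjusted p from 0.0863 to 0.209, and with total-count scaling (0.0637), no filter (0.0679) and the compared groups fitted alone (0.0736). With DESeq2, the adjusted p was 0.0968 for An03g06740 and 0.0881 for An12g05840. With limma on log2(RPKM + 1), none of the 4 passed, with adjusted p from 0.384 to 0.787.

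The 1 member that fell was An04g00740, at 27.9 and 29.3 CPM on glucose, 4.98 and 9.08 CPM after the addition and 158 and 139 CPM on willow. Both libraries after the addition lay below both glucose libraries. It fell by 2.07 ± 0.58 on the log2 scale (SE, edgeR adjusted p = 0.0127). Without the A library after the addition, the adjusted p was 0.218, and with limma on log2(RPKM + 1) it was 0.237. Next below the threshold were An12g05370 and An15g06150, with adjusted p of 0.0510 and 0.0517.

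**Figure D4:**
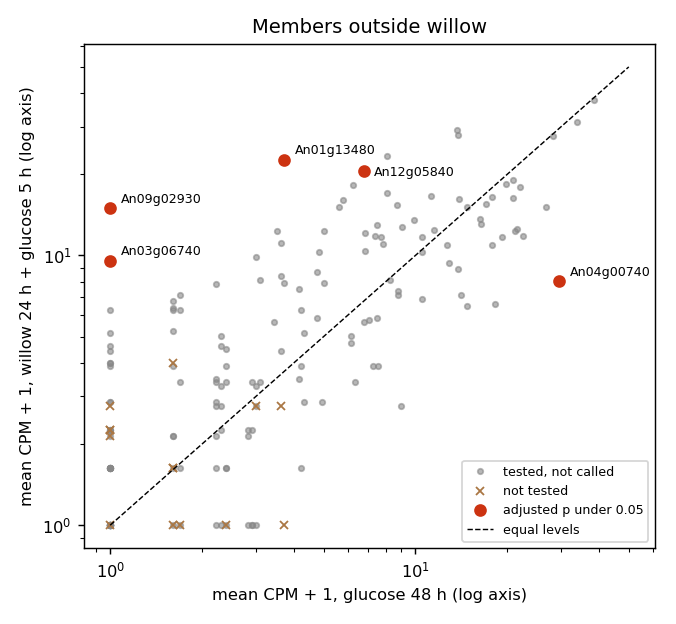
Mean CPM plus 1 of each member on glucose 48 h and after glucose addition, both on log axes, with the line of equal levels and the members that passed the test in red. The 4 members that rose lie above the line, with An09g02930 and An03g06740 at a glucose count of 0, and An04g00740 lies below it.

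Of the 148 abundant willow genes, 45 were higher and 7 lower in that comparison (35.1%), with a median log2 fold change of 1.07. Their median, not corrected for length, was 12 CPM on glucose and 24.5 CPM after the addition, against 1.92 and 3.0 CPM for the members, and the part of this gap in reads in their share of calls was not tested. Among the listed genes, 71 were tested, of which 15 rose and 1 fell, and An03g06740 was the only member among them. Over all genes tested, 10% were higher and 8.87% lower. Of the pectin list's 17 tested genes 6 rose, with a median log2 fold change of 1.92, 5 of them outside the set. Of the cellulose list's 11 tested genes 4 rose, with a median of 1.32.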

How the data were processed

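Members and gene lists were chosen with earlier results of these data known. Total RNA was depleted of ribosomal RNA and sequenced as SOLiD whole transcriptome libraries, per the labels' protocols. The submitters' processing notes name HTSeq, and no source used here gives the aligner or build. Each deposited file holds counts (whole reads for every gene) and the RPKM that the authors derived, per its header. Gene lengths computed from both came out whole within 0.01 bp when RPKM was taken as scaled to the sum over all entries. The 5 entries that name no gene were left out. CPM used TMM factors over all genes. For the test, edgeR 4.0.16 (R 4.3.3) was run two-sided on counts with glmQLFit and glmQLFTest after filterByExpr (minimum count 10, total 15), all 3 groups in 1 fit with 3 residual degrees of freedom. Standard errors are the size of the log2 fold change over the root of F. Scripts were tested on simulated data. Alternatives used DESeq2 1.42.0, limma 3.58.1 on log2(RPKM + 1) and log2(RPKM + 0.1), other scalings, filters and thresholds, the replicate letters as a block, and each library left out. The count of members beside one another under other rules was added after seeing the data. Genes were named by a rule: a symbol or list place, highest and lowest levels, no count elsewhere, calls, longest runs, widest replicate gaps and the edges of the choice. Reads of near-identical genes may be uncounted, so values of gene families are uncertain.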

Additional observations from a re-analysis of the deposited data

How the results depend on the processing

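Membership depended most on the ratio: a ratio of 2 gave 400 members and 8 gave 91, while deposited RPKM in place of CPM gave 102; leaving out 1 library gave 205 to 264. Members beside another member then numbered 88 of 400, 12 of 91 and 18 of 102, and 31 to 43 with 1 library left out. The shares over all genes under these rules are not given here. Genes called between the glucose-fed groups numbered 769 with at least 50 counts in 2 libraries, 758 on log2(RPKM + 1) and 735 on log2(RPKM + 0.1), with 24.1% and 26.9% of these higher against 53% of the 1167, and 631 to 1439 with 1 library left out. Total-count scaling gave 43.2% higher and moved the median of all genes to -0.13, the RPKM values to -0.20 and -0.46. Members called numbered 3 of 165 with DESeq2, 3 of 32 (9.38%) with the 50-count filter, 2 of 29 (6.9%) with the compared groups alone, 0 on log2(RPKM + 1) with limma (0 at an unadjusted p under 0.05, against 24 of 165 with edgeR, or 5 of 29 with the compared groups alone), 2 on log2(RPKM + 0.1) and 2 to 6 with 1 library left out. Listed genes called numbered 5 and 7 on the RPKM scales and 11 to 21 with 1 library left out, against 16. With the replicate letters as a block, 1292 of 6181 genes, 7 of 165 members and 19 listed genes passed. The letters were not taken as pairs, since A minus B differences correlated between groups at -0.0137, 0.12 and 0.167. The 5 called members kept their direction in every alternative that tested them, while the balance of calls over all genes turned as given above and the members' median log2 fold change turned from 0.24 to -0.12 with the compared groups alone. With 1 library left out, the lone library is assumed to vary like the other groups. Depth limits most single values of members outside willow to a few counts.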
